A study of Mus musculus with 16 samples.

Results

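Insm1 and its closest partners were followed here across the islets of Insm1 mutant and control mice. The group holds 5 genes of the 18193 measured, with 9 probe sets between them, and its members were taken by name: Insm1, its relative Insm2, and the transcription factors Neurod1, Foxa2 and Foxa1. Pancreatic islets from 16 animals were each hybridised to 1 Affymetrix 3′ expression array. The 8 mutants carried RIPcreER with 1 floxed and 1 lacZ allele of Insm1 (RIPcreER; Insm1flox/lacZ), and the 8 controls carried RIPcreER with 1 floxed and 1 wild-type allele (RIPcreER; Insm1flox/+). RIPcreER is a tamoxifen-inducible recombinase driven by the rat insulin promoter. All animals received tamoxifen (25 mg, released over 21 days) when 4 to 5 weeks old, with islets taken between 8 and 12 weeks. The floxed allele, the recombinase and the drug were thus common to both groups, while the lacZ allele was present only in mutants, in every cell type. Controls kept 1 wild-type allele, and all animals were of mixed strain background, with contributions from C57BL/6, from 129/ola and from CBA/J.

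Insm1 is a zinc finger repressor of endocrine and neuroendocrine cells. Its amino-terminal SNAG domain recruits histone-modifying repressor complexes, and Insm2 is its closest relative. Neurod1, a basic helix-loop-helix (bHLH) factor, pairs with E proteins to bind E boxes such as those of the insulin promoter. Foxa2 and Foxa1 are forkhead factors that open chromatin at pancreatic and hepatic genes. In islet beta cells Insm1 is known to share binding regions with Neurod1 and Foxa2, which is why these genes are described side by side.

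Windows of 300 bases around the start sites of Neurod1, Foxa2 and Foxa1 are shown because Neurod1 and Foxa2 signals varied together between mutant animals, and Foxa1 is the forkhead relative that sets off Foxa2. They run 5′ to 3′ on the gene's strand, from 250 bases before the start site, in RefSeq's annotation of GRCm38.p6. Capitals mark matches, on either strand, to the E box CANNTG and to the forkhead motifs TGTTTAC and TATTTAC. No overlap between motif kinds occurred in these windows. The Neurod1 window lies at chr2:79456587-79456886 on the minus strand, the Foxa2 window, the third of its 3 annotated starts, at chr2:148045415-148045714 on the minus strand, and the Foxa1 window at chr12:57546062-57546361 on the minus strand.
Neurod1: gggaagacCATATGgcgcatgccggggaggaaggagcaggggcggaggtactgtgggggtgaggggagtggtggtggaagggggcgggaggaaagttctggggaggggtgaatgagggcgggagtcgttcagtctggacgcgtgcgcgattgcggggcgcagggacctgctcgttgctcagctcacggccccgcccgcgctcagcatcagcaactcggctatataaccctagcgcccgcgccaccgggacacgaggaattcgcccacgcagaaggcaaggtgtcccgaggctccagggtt
Foxa2: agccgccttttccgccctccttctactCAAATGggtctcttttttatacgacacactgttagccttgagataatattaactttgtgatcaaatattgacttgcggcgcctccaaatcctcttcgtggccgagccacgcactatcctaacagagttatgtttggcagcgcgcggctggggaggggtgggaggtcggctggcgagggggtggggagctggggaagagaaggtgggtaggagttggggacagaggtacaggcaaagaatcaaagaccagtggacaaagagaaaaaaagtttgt
Foxa1: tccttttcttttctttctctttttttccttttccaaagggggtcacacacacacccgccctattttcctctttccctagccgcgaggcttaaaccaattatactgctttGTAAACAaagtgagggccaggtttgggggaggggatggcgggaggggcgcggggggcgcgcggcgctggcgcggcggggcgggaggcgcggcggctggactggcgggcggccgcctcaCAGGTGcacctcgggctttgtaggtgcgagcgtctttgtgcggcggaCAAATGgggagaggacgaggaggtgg
The Neurod1 window held 1 E box, whose first base lies at −242 from the start site, and the Foxa2 window 1, at −223. The windows of the other Foxa2 starts held no match to the E box or to either forkhead motif. The Foxa1 window held 2 E boxes, and 1 forkhead match at −141. E boxes of this loose form were found in 72.3% of all 32851 promoter windows, and TGTTTAC in 3.65%, so the matches are a description of the letters. The Insm2 window, at chr12:55598667-55598966 on the plus strand, held the E box CAGATG, found in 17.2% of windows.

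The islet label was checked against endocrine genes, which were near the top of the scale in both groups. The 10 measured of 12 endocrine hormone and secretory genes averaged between 14.16 and 14.48 on the log2 scale over the mutant arrays, against 14.13 to 14.47 over the control arrays. All values are deposited log2 signals, whose array medians lay between 6.29 and 6.35. A difference of 1 on this scale is a doubling, and the precision of each comparison is limited by the number of arrays. Acinar markers differed widely between preparations: the mean of 18 measured of 21 genes ranged from 8.78 to 13.41 in mutants and from 11.68 to 13.85 in controls. Immune markers, 19 measured of 20, averaged 6.71 to 8.92 in mutants and 6.72 to 7.99 in controls. No immune marker and 1 acinar marker (Bhlha15, lower in mutants) passed the test over all genes, and 17 acinar markers were lower with the replicate number as a block. Of 12 stromal markers 2 rose (Col1a2 by 0.60 and Dcn by 1.29) and 1 fell (Acta2, by 0.98), of 9 measured duct markers 1 fell (Krt19, by 0.95), and of 12 endothelial markers 0 passed. The stromal means were 8.50 to 9.24 in mutants and 8.40 to 8.92 in controls, and the duct means 8.23 to 8.47 in mutants and 8.43 to 8.77 in controls. The mean difference between 3′ and 5′ probe sets of the control transcripts was smaller in the mutant array of all 8 same-numbered pairs (mutant minus control, −0.16 to −0.03). The part of acinar, immune, stromal and duct cells and of RNA quality in the results was not tested. In whole islets, fewer cells of a type and less RNA per cell cannot be told apart.

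None of the 5 genes passed the test between genotypes (limma, adjusted p under 0.05 over all genes), a threshold that 8.76% of all genes passed. With the replicate number as a block, again 0 of 5 passed, against 17.6% of all genes. At an unadjusted p under 0.05 there was 1 of 5, Insm1, against 21.4% of all genes. With the block its unadjusted limma p was 0.0758. Of the 9 probe sets 0 passed, against 6.86% of all probe sets, or 13.9% with the block. Mutant and control arrays overlapped for all 5 genes, whereas 2.29% of all genes had groups that did not overlap.

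Insm1 transcript signal averaged lower in mutant islets by a difference that did not pass adjustment. Its brighter probe set (1455865_at) gave 10.71 to 11.30 with a median of 11.08 over the 8 mutant arrays, against 10.94 to 11.60 with a median of 11.24 over the 8 control arrays. The groups overlapped over much of their range. The 3 lowest of all 16 values were mutant arrays 3, 2 and 1, at 10.71, 10.74 and 10.86, and the 3 highest were control arrays 3, 1 and 2, at 11.60, 11.47 and 11.40. The means were 11.02 ± 0.22 in mutants and 11.26 ± 0.23 in controls (SD, n = 8 each). The mutant minus control difference was −0.25 (SE 0.11, 95% confidence interval −0.47 to −0.02), a mutant over control ratio of 0.843 with bounds of 0.722 and 0.985. The limma adjusted p was 0.182, or 0.221 with the block (SE 0.13), and the mutant array was lower in 5 of 8 pairs. Whether this probe set reads the deleted stretch of Insm1 is not known here, and the size of the difference therefore does not check the deletion.

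The other Insm1 probe set (1421399_at) showed no difference of that size. It gave 10.16 to 10.63 with a median of 10.55 in mutants and 10.33 to 10.83 with a median of 10.52 in controls. The difference was −0.05 (SE 0.08, interval −0.22 to 0.11, limma adjusted p = 0.781 over all probe sets), with the mutant lower in 4 of 8 pairs. To set the responses of the probe sets side by side, the log2 difference between them was taken on each array, which was 0.52 ± 0.22 in mutants and 0.72 ± 0.15 in controls (SD, n = 8 each). This difference between probe sets differed by −0.19, mutant minus control (exact permutation p = 0.0622 over 12870 splits, two-sided; exact paired p = 0.109). The p passed 0.05 when mutant array 1, 5 or 7 was left out (0.0454, 0.0381 and 0.0463) or control array 6 (0.0242), so 1 array decides on which side it falls. The 2 probe sets of this gene were therefore not shown to respond differently to genotype.

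**Figure D1:**
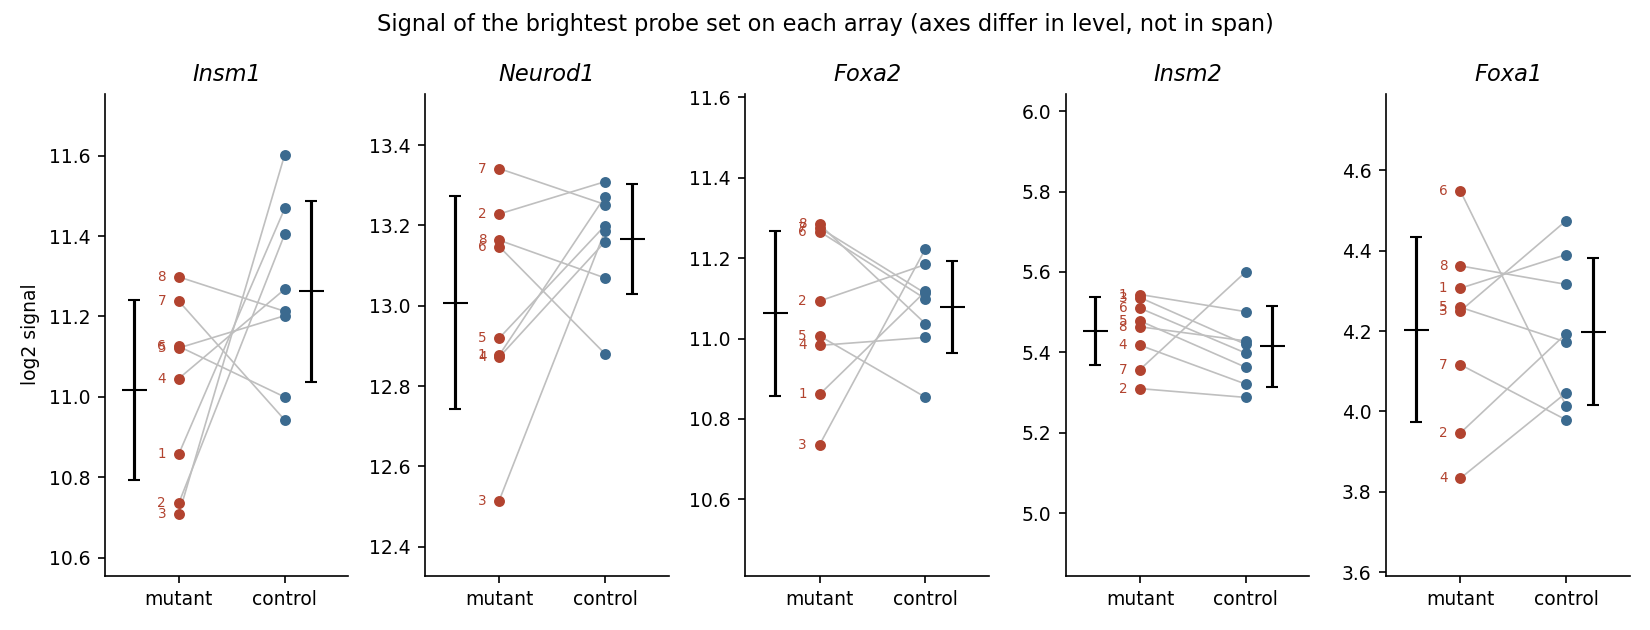
Log2 signal of the brightest probe set of Insm1, Neurod1, Foxa2, Insm2 and Foxa1 on each array, mutant left of control, with thin lines joining arrays of the same replicate number (numbers printed beside the mutant points) and bars giving mean ± SD (n = 8 each). The panels have different levels but the same span. The groups overlap in every panel, and mutant array 3 is the lowest of all 16 for Insm1, Neurod1 and Foxa2.

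Neurod1 was among the bright genes of both groups and differed little between them. Its brighter probe set (1426413_at) gave 12.52 to 13.34 with a median of 13.03 in mutants, against 12.88 to 13.31 with a median of 13.19 in controls. The groups overlapped, and mutant array 3, at 12.52, stood below all other arrays. The difference was −0.16 (SE 0.10, interval −0.37 to 0.05, limma adjusted p = 0.403), and the mutant array was lower in 5 of 8 pairs. The dimmer Neurod1 probe set (1426412_at) showed narrower mutant values, 11.67 to 11.90 with a median of 11.77, against 11.79 to 12.24 with a median of 11.94 in controls. Its difference was −0.19 (SE 0.07, interval −0.33 to −0.05), lower in 7 of 8 pairs, with an unadjusted p of 0.00938 that did not pass adjustment over all probe sets (limma adjusted p = 0.0946, or 0.0819 with the replicate block). The lower bounds of the mutant over control ratio were 0.775 for the brighter and 0.795 for the dimmer probe set.

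Foxa2, which is required for regulated insulin secretion and for Pdx1 expression in beta cells, had nearly equal signals in the groups. Its single probe set (1422833_at) gave 10.74 to 11.28 with a median of 11.05 in mutants, against 10.85 to 11.22 with a median of 11.11 in controls. The mutant range enclosed the control range at both ends. The difference was −0.02 (SE 0.08, interval −0.19 to 0.16, limma adjusted p = 0.943), and the mutant was lower in 4 of 8 pairs. Mutant values were more spread (SD 0.20) than control values (SD 0.12), and this difference in spread was not tested.

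Insm2 and Foxa1 gave signals below the array medians. In that range background compresses differences, and no detection calls were used, so the data do not show whether these transcripts were present. The brightest of the 3 Insm2 probe sets (1453436_at) gave 5.31 to 5.54 with a median of 5.47 in mutants and 5.29 to 5.60 with a median of 5.41 in controls. Its difference was 0.04 (SE 0.05, interval −0.07 to 0.15, limma adjusted p = 0.759), although the mutant array was higher in 7 of 8 pairs. The other Insm2 probe sets differed by 0.10 (1437781_at) and 0.06 (1422269_at), with limma adjusted p of 0.50 and 0.67 over all probe sets. The groups overlapped for each of them. Foxa1 (1418496_at) gave 3.83 to 4.55 with a median of 4.25 in mutants and 3.98 to 4.47 with a median of 4.18 in controls, a difference of 0.00 (SE 0.10, interval −0.20 to 0.21, limma adjusted p = 0.988).

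**Figure D2:**
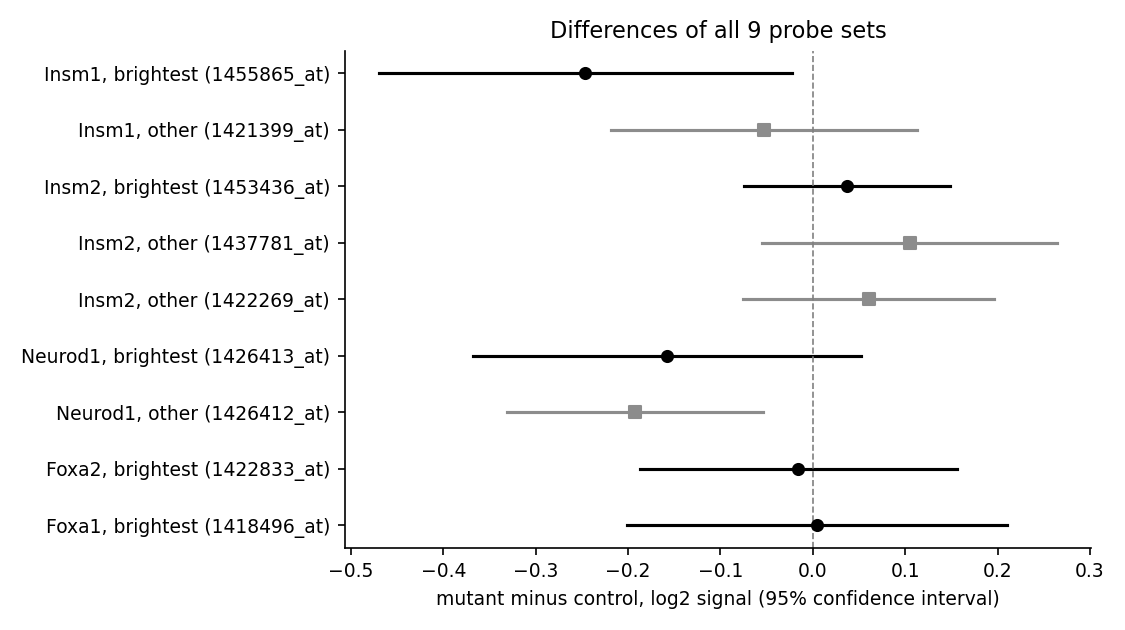
Mutant minus control difference in log2 signal for each of the 9 probe sets, with 95% confidence intervals from limma over 16 arrays. Black circles are the brightest probe set of each gene and grey squares the others. The brighter Insm1 and the dimmer Neurod1 probe sets have intervals wholly below 0 in this fit without the replicate block, and neither passed adjustment.

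The differences were uneven over the animals. Arrays with the same replicate number varied together, and the numbers were taken to pair them. Insm1 gave mutant minus control differences of −0.61, −0.67 and −0.90 in pairs 1, 2 and 3, while pairs 4 to 8 gave −0.22, −0.08, 0.13, 0.30 and 0.09. Neurod1 gave −0.39, −0.08 and −0.67 in pairs 1 to 3 and −0.29 to 0.27 in pairs 4 to 8. Foxa2 gave −0.26, −0.09 and −0.49 in pairs 1 to 3 and −0.02 to 0.25 in pairs 4 to 8. These values are from the probe set used for each gene, on which pair 3 had the lowest value for all 3 genes. Pair 3 was not the lowest on the dimmer probe sets. In pairs 1 to 3 these gave −0.35, −0.25 and −0.25 for Insm1 and −0.50, −0.46 and −0.27 for Neurod1. Without pairs 1 to 3 the Insm1 difference turned to 0.04, the Foxa2 difference to 0.14 and the Neurod1 difference to −0.02, none of which passed the test (limma adjusted p = 0.873, 0.432 and 0.951).

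Pairs with lower Insm1 and Foxa2 in the mutant were largely those with higher immune markers in the mutant. The immune marker mean differed by 0.94, 0.90 and 1.77 in pairs 1 to 3, by 0.41 in pair 4, and by −0.51 to 0.04 in pairs 5 to 8. Across the 8 pairs its difference correlated with that of Foxa2 at r = −0.96 (exact permutation p = 0.000397, adjusted p = 0.00437 over 11 relations; rho = −0.95, adjusted p = 0.0125). The Foxa2 relation stayed at −0.95 without pairs 3 and 6, the farthest from the median immune difference. For Insm1 the values were r = −0.93 (exact permutation p = 0.00126, adjusted p = 0.00696; rho = −0.83, adjusted p = 0.0423) and −0.90 without those pairs. The Foxa2 relation passed with any 1 pair left out (adjusted exact permutation p at most 0.0349), whereas the Insm1 relation did not pass without pair 3 (0.0524). The acinar marker mean also varied between pairs. Its mutant minus control difference was −0.24, −1.30 and −0.54 in pairs 1 to 3, −1.90 in pair 4 and −3.18 to −0.91 in pairs 5 to 8. Whether the relation is particular to immune markers was not tested.

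The relation of Neurod1 to the immune mean was looser: r = −0.83 (exact permutation p = 0.0103, adjusted p = 0.0265; rho = −0.88, adjusted p = 0.0398), and −0.48 without pairs 3 and 6, so it rests on those pairs. It lost its call when pair 1, 3, 6, 7 or 8 was left out (adjusted exact permutation p up to 0.175) and after quantile normalisation (0.0535). The dimmer probe sets gave r = −0.73 for Insm1 and −0.59 for Neurod1 (adjusted exact permutation p = 0.0773 and 0.172). Among all 18193 genes, Foxa2 had the lowest r with the immune mean over these pairs. At or below the value of Insm1 there were 11 genes, and at or below that of Neurod1 163, or 0.896%. Foxa1, at r = −0.79, had 258 genes at or below it, while Insm2 stood at 0.16. The immune relations were chosen after the data were seen, and the part of immune cells in the differences was not tested.

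Within the mutant group, taken without pairing, the immune mean correlated with Insm1 at r = −0.83 (adjusted exact permutation p = 0.0265) and −0.92 without arrays 1 and 3, its 2 farthest arrays. Foxa2 gave −0.86 (adjusted exact permutation p = 0.0176) and −0.62 without them, and Neurod1 −0.68 (adjusted exact permutation p = 0.104) and −0.13 without them. The Insm1 call was lost when any of mutant arrays 3 to 8 was left out, the Foxa2 call without array 3, 6, 7 or 8, and both after quantile normalisation. In controls the values were 0.25 for Insm1, −0.02 for Neurod1 and −0.04 for Foxa2 (adjusted exact permutation p = 0.685, 0.964 and 0.964). Without control arrays 1 and 6, the 2 farthest, they were 0.16, −0.44 and −0.61. Without control array 1 alone they were −0.20, −0.75 and −0.39 (adjusted exact permutation p = 0.658, 0.0840 and 0.440), so the control values near 0 rest on that array. The control immune means spanned less, with 1 array at 7.99 and the other 7 between 6.72 and 7.21, and the difference between the groups' correlations was not tested.

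**Figure D3:**
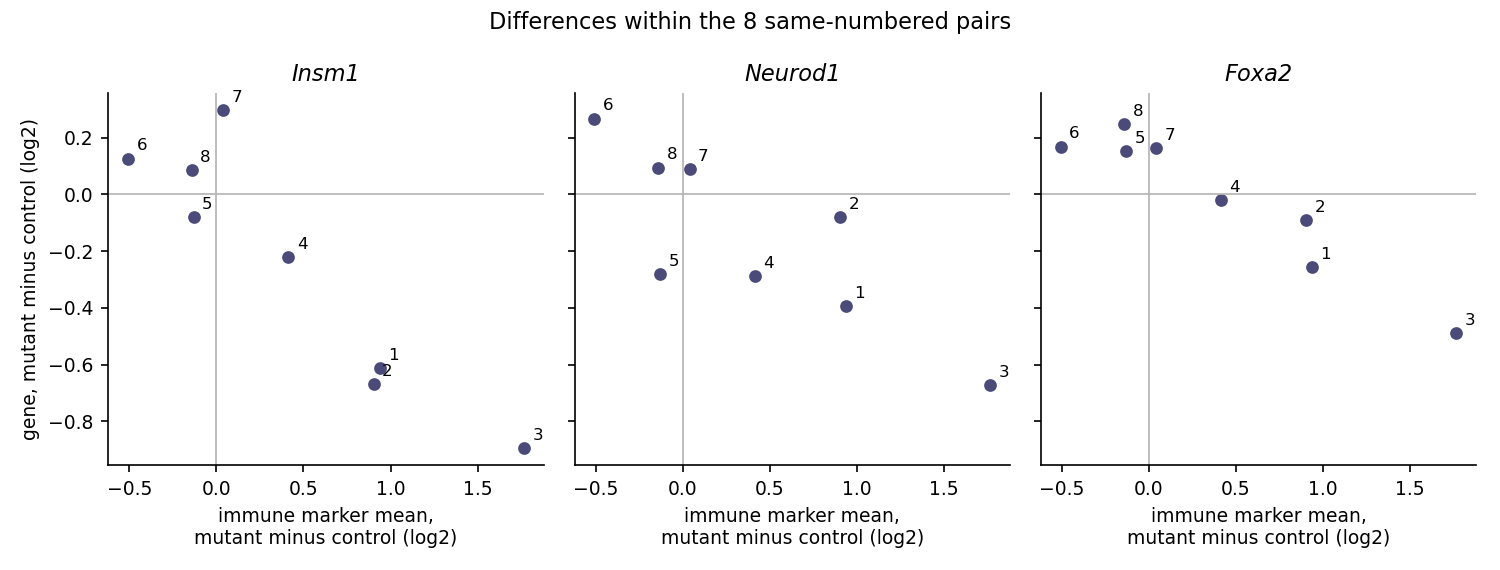
Mutant minus control difference in log2 signal of Insm1, Neurod1 and Foxa2 (y axis) against the same difference of the mean of 19 immune marker genes (x axis), with 1 point for each of the 8 same-numbered pairs. Pairs 1 to 4 lie below and to the right of 0 in each panel, with pair 2 at −0.08 for Neurod1. The Pearson correlations are −0.93 for Insm1, −0.83 for Neurod1 and −0.96 for Foxa2.

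Among the mutant arrays, Neurod1 and Foxa2 varied together (r = 0.91, exact permutation p = 0.00206, adjusted p = 0.0124 over 6 relations; rho = 0.86, adjusted p = 0.0321), and r was 0.80 without arrays 3 and 7. Without mutant array 3 alone r was 0.84 and the call was lost (adjusted exact permutation p = 0.192). Insm1 and Foxa2 gave r = 0.77 (adjusted exact permutation p = 0.0903) with rho = 0.86 (adjusted p = 0.0321). Without mutant array 2, in which Insm1 was low at 10.74 while Foxa2 was 11.09, r for that pair of genes was 0.93 (adjusted exact permutation p = 0.00119). Insm1 and Neurod1 gave r = 0.56 (adjusted exact permutation p = 0.298), and 0.89 without mutant array 2 (adjusted exact permutation p = 0.0115). In controls the coefficients were 0.15 for Neurod1 with Foxa2, 0.39 for Insm1 with Foxa2 and 0.46 for Insm1 with Neurod1, and none passed (adjusted exact permutation p = 0.706, 0.411 and 0.385). Single control arrays moved them widely. Insm1 with Neurod1 ranged from 0.13 without control array 6 to 0.76 without control array 7, and was 0.92 without arrays 3 and 7. Insm1 with Foxa2 ranged from 0.12 without control array 3 to 0.57 without control array 7, and Neurod1 with Foxa2 from −0.01 without control array 2 to 0.38 without control array 6. The difference between the groups was not tested, and the part of the immune markers, whose correlations with these genes over the mutant arrays are given above, was not tested.

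Genes whose array-to-array variation was most like that of each factor were found from deviations from the group means over the 16 arrays, as a description. For Insm1 they were Gm26504 (r = 0.85), Thsd1 (0.82), Rnf214 (0.82), Crip3 (0.80) and Lingo1 (0.80). None of these 5 differed between genotypes after adjustment, and Gm26504, Thsd1 and Crip3 lay below the array medians. For Neurod1 they were Gm31679 (0.88), Ptprb (0.88), Ttc8 (0.87), Tnrc6a (0.87) and Cep68 (0.86), and none of them passed the test between genotypes. Ptprb encodes a receptor phosphatase of endothelial cells, and Ttc8 a subunit of the BBSome, a ciliary transport complex. For Foxa2 they were App (0.83), Zmym4 (0.82), Mamld1 (0.81), Rab3gap1 (0.80) and Isg20 (0.80). App, the amyloid precursor protein, was higher in mutants by 0.35 (limma adjusted p = 0.00564) and Isg20, an interferon-induced exonuclease, lower (−0.35, limma adjusted p = 0.0262). The partners ranked lower: Neurod1 stood at rank 42 for Foxa2 (r = 0.73), and Foxa2 at rank 92 for Insm1 (r = 0.61).

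Chromosomal neighbours were read because the lacZ and floxed alleles sit in the Insm1 gene. Insm1, Neurod1 and Foxa2 lie on chromosome 2, and Insm2 and Foxa1 on chromosome 12. Of the 30 genes measured 3 to each side of the 5 factors, 3 passed the test, 1 rising and 2 falling. That share of 10% is close to the 8.76% of all genes. All 3 were among the 10 genes directly beside a factor. With the replicate block 6 of the 30 passed, near the 17.6% of all genes called with it. Cfap61, a gene of cilia and flagella next to Insm1, gave 6.10 to 6.69 with a median of 6.25 in mutants, against 6.36 to 7.15 with a median of 6.87 in controls. It fell by 0.51 (SE 0.12, limma adjusted p = 0.00884), lower in 8 of 8 pairs with overlapping groups. The call was lost without pairs 1 to 3 (−0.35, limma adjusted p = 0.273).

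On the other side of Insm1, Ralgapa2 was higher in the mutant of all 8 pairs, with a difference of 0.35, and passed only with the replicate block (limma adjusted p = 0.187, and 0.0108 with the block). The same held for Naa20, lower in all 8 pairs with a difference of −0.18 (0.332, and 0.0122 with the block), whereas Crnkl1, Kiz and Xrn2 did not pass either way. Next to Foxa2, the long noncoding RNA 9030622O22Rik gave 6.97 to 7.64 with a median of 7.20 in mutants, against 6.35 to 7.05 with a median of 6.84 in controls. It rose by 0.48 (SE 0.11, limma adjusted p = 0.0108), higher in 8 of 8 pairs, while Foxa2 itself differed by −0.02. That call was lost without pairs 1 to 3, where the difference was 0.56 (limma adjusted p = 0.0792), and with the acinar mean as a covariate, where it was 0.41 (0.0535). Of the 7 measured genes between Insm1 and Foxa2 it was the only one called, and Nkx2-2, a beta cell homeobox factor on that stretch, differed by −0.07 (limma adjusted p = 0.534).

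Next to Neurod1, Itprid2 gave 9.60 to 10.03 with a median of 9.81 in mutants, against 10.03 to 10.29 with a median of 10.21 in controls. The groups met only at their edges. Itprid2 fell by 0.36 (SE 0.07, limma adjusted p = 0.00231) and was lower in 8 of 8 pairs. Cerkl, on the other side of Neurod1, differed by −0.27 and did not pass (limma adjusted p = 0.101). In the fit with the block and the 3′ minus 5′ difference, Itprid2 differed by −0.42, Cfap61 by −0.21 and 9030622O22Rik by 0.63. None of them passed (limma adjusted p = 0.289, 0.722 and 0.0909). The 3′ minus 5′ difference was smaller in the mutant of every pair, so this fit separates it poorly from genotype. Around Insm2 and Foxa1 no neighbour passed, and of the 10 measured genes between them 0 were called, 8.76% of all genes being called. Mipol1, beside Foxa1, was the exception with the replicate block (−0.38, limma adjusted p = 0.128, and 0.0182 with the block).

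Other factors related to these genes were then read by list, against the 4.1% of all genes that rose and the 4.66% that fell. The lists do not hold whole families and were chosen with earlier results of these data known. A share of a list therefore does not describe its family. Among 15 measured of 16 listed forkhead genes other than Foxa1 and Foxa2, 4 rose, 0 fell and 11 did not pass. Their median difference was 0.09 against −0.01 for all genes. With the replicate block 4 rose and 1 fell, against 17.6% of all genes called, the faller being Foxk2 (−0.18, limma adjusted p = 0.340, and 0.0409 with the block). Foxp2, a forkhead repressor known from neural circuits, gave 9.13 to 10.20 with a median of 9.76 in mutants, against 7.78 to 8.78 with a median of 8.21 in controls. The groups did not overlap. Foxp2 rose by 1.53 (SE 0.16), or 2.89-fold, with a limma adjusted p of 8.62e-06, and 5 of its 6 probe sets passed. Foxo1, the insulin-regulated forkhead factor, rose by 0.26 (limma adjusted p = 0.00760), and Foxn3 by 0.28 (0.00787) with groups that did not overlap. Foxk1 was called at 0.17 (0.0441), while its other probe sets gave −0.07 and −0.04. Foxa3, the remaining Foxa paralogue, differed by −0.01 (0.968).

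The other forkhead differences were smaller than that of Foxp2. Without pairs 1 to 3, which leaves 10 arrays, Foxo1, Foxn3 and Foxk1 differed by 0.19, 0.34 and 0.15 and no longer passed (limma adjusted p = 0.159, 0.0536 and 0.226). The Foxk1 call was also lost when any of mutant arrays 1, 3, 4, 6, 7 and 8 or control arrays 2 to 7 was left out (limma adjusted p up to 0.0845), and Foxn3 did not pass when probe sets were averaged (0.0877). Foxk1 did not pass with the acinar mean as a covariate either, where the difference was 0.16 (limma adjusted p = 0.0985).

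Among 15 measured of 16 listed bHLH relatives and partners of Neurod1, 1 rose, 0 fell and 14 did not pass, with a median difference of 0.17. The riser was Hes1, a Notch-induced repressor of endocrine bHLH genes. It gave 8.11 to 8.58 with a median of 8.32 in mutants, against 7.83 to 8.25 with a median of 8.08 in controls, a difference of 0.29 (SE 0.08, limma adjusted p = 0.0365). The Hes1 call was lost without mutant array 3, 4, 5 or 8, or control array 2, 3, 4, 6 or 8 (limma adjusted p at most 0.0735), as it was with pairs 1 to 3 left out, where the difference was 0.39 (0.0798). Hes1 also did not pass with the acinar mean as a covariate, where the difference was 0.28 (limma adjusted p = 0.0825). With the replicate block 5 members rose, against 17.6% of all genes called: Hes1, Tcf4, an E protein that pairs with Neurod1, and Id2, Id3 and Id4, which sequester E proteins. Id2 differed by 0.59 and Id3 by 0.37, each higher in all 8 pairs (limma adjusted p = 0.116 and 0.0587, and 0.00206 and 0.00327 with the block). Neurog3, the factor that starts the endocrine programme, differed by 0.16 (0.702), and the paralogues Neurod2, Neurod4 and Neurod6 lay between −0.06 and 0.02.

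Among the 9 listed SNAG-domain zinc finger relatives of Insm1, 0 rose, 1 fell and 8 did not pass, with a median difference of 0.01. Scrt1, a repressor best known from neurons, gave 6.95 to 7.26 with a median of 7.15 in mutants, against 7.20 to 7.61 with a median of 7.45 in controls. It fell by 0.31 (SE 0.07, limma adjusted p = 0.00712) and was lower in 8 of 8 pairs. Its other probe set gave 0.02, and the call was lost when the probe sets were averaged (limma adjusted p = 0.0580). Gfi1, Gfi1b, Snai1, Snai2 and Snai3 differed by −0.04 to 0.07 and did not pass. Ovol2 differed by −0.37 (limma adjusted p = 0.330, or 0.0866 with the block) and Scrt2 by −0.17 (0.155, or 0.0713 with the block). Ovol1 differed by 0.01, and none of these passed either.

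Genes that Neurod1 is known to bind or control did not move one way. Of 9 measured, 1 rose, 1 fell and 7 did not pass, with a median difference of −0.01. G6pc2, the islet glucose-6-phosphatase subunit, gave 13.42 to 13.75 with a median of 13.68 in mutants, against 13.82 to 14.06 with a median of 13.93 in controls. The groups did not overlap, and G6pc2 fell by 0.33 (SE 0.05, limma adjusted p = 0.000857). Abcc8, the sulfonylurea receptor, rose by 0.22 (0.0404). That call was lost without mutant array 2, 4, 6, 7 or 8, or control array 1, 3, 4, 5 or 6 (limma adjusted p at most 0.0814), after median centring (0.0604) and with pairs 1 to 3 left out, where the difference was 0.24 (0.0995). Abcc8 also did not pass with the acinar mean as a covariate, where the difference was 0.17 (limma adjusted p = 0.143). Pax6 differed by −0.16 (0.123) and Nkx2-2 by −0.07. Ins2 lay at the top of the scale in both groups, where differences are compressed.

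Among 12 measured genes linked to Foxa factors, 2 rose, 3 fell and 7 did not pass, with a median difference of −0.02. Pdx1, Hadh and Slc2a2 fell by 0.56, 0.44 and 0.89, with groups that did not overlap, while Hnf4a and Abcc8 rose by 0.35 and 0.22. Hadh, a mitochondrial enzyme that restrains insulin release, gave 13.63 to 13.93 with a median of 13.84 in mutants, against 14.06 to 14.40 with a median of 14.25 in controls (limma adjusted p = 0.000125), and all 3 of its probe sets were lower. Kcnj11, the channel partner of Abcc8, differed by 0.03 (0.768). With the block Tat and Alb also fell, giving 2 risers and 5 fallers of 12, against 17.6% of all genes called in either direction. Alb averaged 5.83 in mutants and 6.18 in controls, below the array medians, so its values do not show whether the transcript was present.

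Among 16 measured regulators of endocrine cells other than the 5 factors, 2 rose, 3 fell and 11 did not pass. Sox4, an HMG-box factor of endocrine progenitors, gave 11.66 to 13.35 with a median of 12.12 in mutants, against 10.29 to 11.75 with a median of 10.93 in controls. Sox4 rose by 1.21 (SE 0.23), or 2.31-fold, with a limma adjusted p of 0.00302 and overlapping groups. Hnf4a rose by 0.35 on the probe set used. Its other probe sets were split, at 0.45, 0.05 and 0.005 (limma adjusted p = 0.0115, 0.846 and 0.978 over all probe sets). Pdx1, Nkx6-1 and Mnx1 fell, by 0.39 for Nkx6-1 and 0.68 for Mnx1. The Nkx6-1 call was lost without pairs 1 to 3, where the difference was −0.24 (limma adjusted p = 0.0764). The 15 genes called on these lists all lost their call in a fit with the replicate block and both the acinar and the immune mean, in which 10 genes of 18193 were called at all. Foxp2 there differed by 1.53 (limma adjusted p = 0.281) and Slc2a2 by −0.93 (0.0574). Abcc8 stood at −0.07, Foxo1 at −0.02 and Hes1 at 0.09 in the same fit. The acinar mean was lower in the mutant of every pair (mutant minus control, −3.18 to −0.24), so this fit separates it poorly from genotype. Whether the lost calls come from acinar or immune content was therefore not tested. In a fit with the block and the 3′ minus 5′ difference of the control transcripts, 5 of the 15 passed (Foxp2, Hadh, Mnx1, Pdx1 and Slc2a2). Sox4 there differed by 1.18 (limma adjusted p = 0.313), Hnf4a by 0.34 (0.239) and Nkx6-1 by −0.37 (0.410). G6pc2 differed by −0.43 (0.0527), Scrt1 by −0.48 (0.0971) and Foxo1 by 0.13 (0.752). The 3′ minus 5′ difference was also smaller in the mutant of every pair, so its part in these lost calls was not tested.

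**Figure D4:**
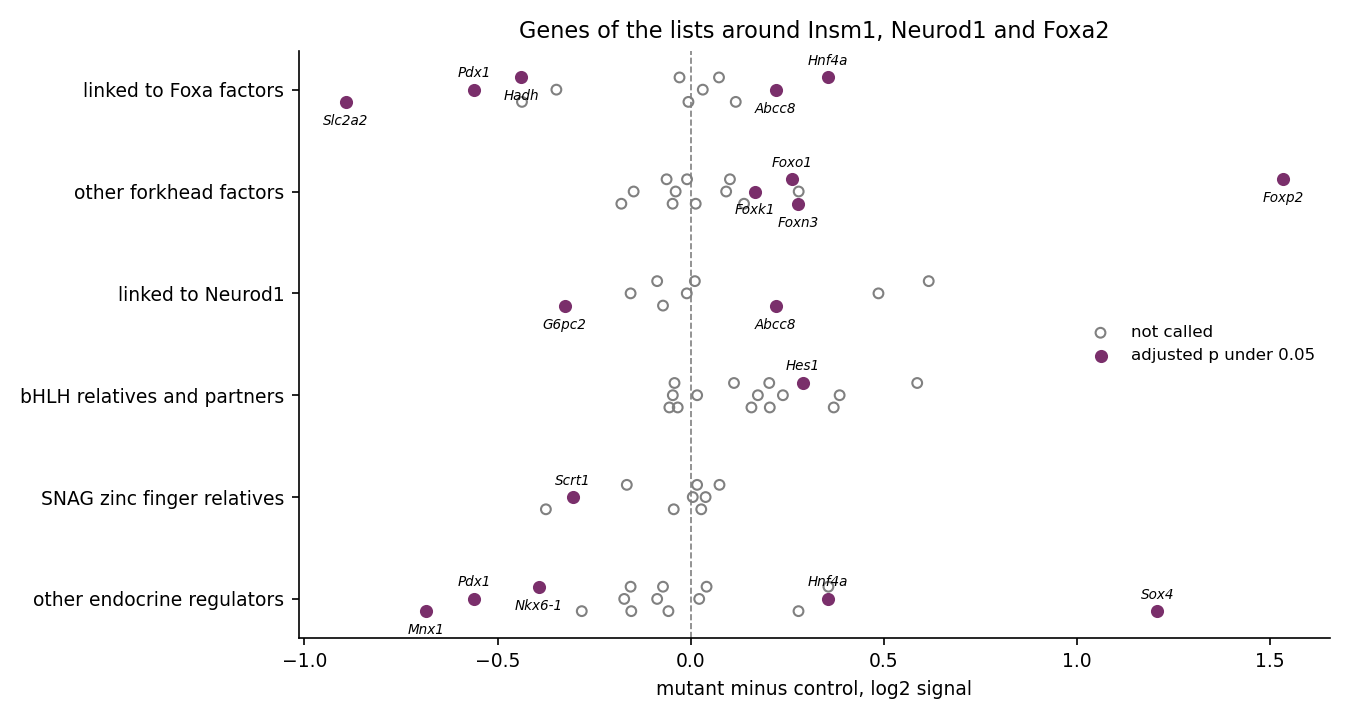
Mutant minus control difference in log2 signal (x axis) of the measured genes on each list around Insm1, Neurod1 and Foxa2 (rows), with small vertical offsets for legibility. Filled points passed the test over all genes (adjusted p under 0.05) and are named, and open points did not. Foxp2 at 1.53 and Sox4 at 1.21 are the highest points, and Slc2a2 at −0.89 the lowest. Genes on more than 1 list appear in each.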

How the data were processed

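Total RNA extracted with Trizol was labelled with a 3′ IVT Express kit and hybridised to 1 array per islet preparation, per the labels' protocols. Each probe set has 1 value per array, a log2 signal deposited by the authors. How background and scale were handled upstream is not given in the sources used here, and no further scaling was applied. Of 45101 probe sets, 64 controls were left out, 34945 named 1 gene, 932 several and 9160 none in the platform annotation. Symbols were updated through RefSeq GRCm38.p6 for 34741. For 9010 of the 18193 genes several probe sets existed, and the brightest on average was used. No 2 columns were identical, and array correlations ranged from 0.971 to 0.993.

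The genotypes were compared in R 4.3.3 by limma 3.58.1, using lmFit and trended eBayes with no covariate. Tests were two-sided, with Benjamini-Hochberg adjustment over all genes, and called genes have an adjusted p under 0.05. The difference between the Insm1 probe sets and the correlations were tested by exact permutation. The steps were checked on simulated data. In the limma check the simulated arrays were independent, so it did not cover the correlation between same-numbered arrays.

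Once group means were removed, same-numbered arrays correlated at 0.237 or more in each of the 8 pairs (highest 0.735, median 0.466), while arrays of unlike number had a median of −0.10. For 13 of 16 arrays the best match was the array of their own number. The numbers, which the labels give, were therefore taken to pair the arrays. Controls are described as litter-matched in the series text. That each array is a separate animal is taken from that text. The p-values set differences against the variation between these samples, and those of the main fit do not use the pairing.

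The genes and lists were chosen with earlier results of these data known. Named are the 5 genes with all probe sets, up to 6 called members of each list, 3 measured neighbours on each side, and the 5 genes most like Insm1, Neurod1 and Foxa2. The relations with the immune mean were chosen after the data were seen. The settings varied were quantile normalisation, removal of dim genes, median centring, averaging or testing all probe sets, array weights, eBayes without a trend, a block for the replicate number, marker means and the 3′ minus 5′ difference as covariates, leaving out pairs 1 to 3, and leaving out each array.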

Additional observations from a re-analysis of the deposited data

How the results depend on the processing

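The 1594 called genes became 3200 with the replicate block, 2398 with every probe set tested, 828 without pairs 1 to 3, 238 with the block and the 3′ minus 5′ difference, and 10 with the block and both marker means; leaving out 1 array gave 1324 to 1645. None of the 5 genes was called in any setting. Insm1 ranged from −0.31 to 0.20 over 13 settings (limma adjusted p 0.108 to 0.982, single arrays left out included), and was above 0 in 3: the block with both marker means (0.20), the block with the 3′ minus 5′ difference (0.03) and without pairs 1 to 3 (0.04). Without 1 array it was −0.29 to −0.20. Neurod1 ranged from −0.18 to −0.02, Foxa2 from −0.08 to 0.19, Foxa1 from −0.02 to 0.12 and Insm2 from −0.20 to 0.07. With 1 mutant and 1 control array per replicate number, the replicate block cannot change the differences. It called none of the 5 (Insm1 limma adjusted p = 0.221). The gap between the Insm1 probe sets ranged from −0.23 to −0.14 with 1 array left out, and was −0.04 without pairs 1 to 3. The cause of these changes was not tested. The acinar mean and the 3′ minus 5′ difference were lower in the mutant of every pair. The fits with the block and these covariates therefore separate them poorly from genotype. Insm2 and Foxa1 have no value without dim genes, since both were removed there, and their dim signal limits what their values can show.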
